A study of Homo sapiens with 7 samples.

Results

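O-GlcNAc cycling was examined through 8 of the 77441 guide RNAs of a pooled knockout screen, namely all 4 guides against OGT and all 4 against OGA. The guides were taken by target gene alone, and OGA is listed in the guide library under its older symbol, MGEA5. The screened cells were from HCT116, a human colorectal carcinoma line, of which clonal lines with a GFP reporter under a CMV promoter at the AAVS1 locus had been made. The reporter transcript held exons 4 and 5 of OGT and the whole of intron 4 between them, so that GFP followed the splicing of that intron. All input and sorted cells alike had this reporter, received the Brunello guides by lentivirus at a multiplicity of infection of 0.3, were kept in puromycin for 8 days from day 2, and were given 1 µM thiamet G (TG) for 24 h on day 9, renewed every 12 h. Sorted cells were those with high GFP at the end of day 10, and input cells were left unsorted. There were 3 libraries of each kind, labelled as biological replicates, and 1 library of the guide pool. No reporter cells sorted without TG were analysed here.

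OGT takes GlcNAc from the donor UDP-GlcNAc and attaches it to serines and threonines of proteins in the nucleus and cytoplasm, and OGA removes it. No other human enzymes are known to carry out these reactions on nuclear and cytoplasmic proteins. Dividing mammalian cells generally need OGT. When O-GlcNAc is abundant, OGT intron 4 is kept in the transcript and the RNA stays in the nucleus, whereas scarce O-GlcNAc favours its removal. TG blocks OGA and so raises O-GlcNAc, and was given to bring GFP from the reporter down. In a knockout screen of this kind, Cas9 cuts at the site that matches the guide, and a guide that is more abundant among sorted than input cells marks cells whose GFP was high. Cutting and the loss of protein were not measured guide by guide.

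The 8 guides are shown because each is a separate cut in one of these enzymes, and the results differ between them. The lower-case letters are the guide as deposited, and the capitals are the PAM, the 3 bases that Cas9 needs next to its target, read from the genome.
OGT exon 2: ctatacacttccagtgtcgaAGG
OGT exon 7: tggcaatagacacctacaggCGG
OGT exon 10: ggcacgcgtataacactgcaAGG
OGT exon 12: gaagaagttggtcagtattgTGG
MGEA5 exon 3: ttggcgagagatgtattcagTGG
MGEA5 exon 4: attgaaacgtaaattggaccAGG
MGEA5 exon 8: aactcactgctgtattgatgAGG
MGEA5 exon 9: aactgatgaacagacaaacaAGG

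Each guide matched the GRCh38 genome perfectly at 1 place followed by NGG, in coding sequence of its own target. Exons are numbered in the reference (MANE) transcripts of GENCODE 44, which have 22 exons and 1046 codons for OGT and 16 exons and 916 codons for OGA. The OGT guides lay on chromosome X at chrX:71536328-71536347 (exon 2, plus strand), chrX:71555291-71555310 (exon 7, plus), chrX:71557029-71557048 (exon 10, minus) and chrX:71557528-71557547 (exon 12, plus), and the gene is on the plus strand. Their cuts fell in codons 68, 282, 416 and 492. All 4 cuts thus came before the middle of the protein, with 6.41 to 46.9% of it ahead of the cut. The N-terminal part of OGT is built of tetratricopeptide repeats and the C-terminal part is catalytic. None of the guides lay in exon 4, intron 4 or exon 5, the OGT sequence that the reporter holds.

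The OGA guides lay on chromosome 10, where the gene is on the minus strand. They were at chr10:101813042-101813061 (exon 3, minus), chr10:101810186-101810205 (exon 4, minus), chr10:101800235-101800254 (exon 8, plus) and chr10:101799048-101799067 (exon 9, minus). Their cuts fell in codons 112, 159, 396 and 534. The glycoside hydrolase domain that removes O-GlcNAc is N-terminal in OGA. The guides in exons 3 and 4 cut the coding sequence of 5 of 5 protein-coding OGA transcripts in the annotation, that in exon 9 cut 4 and that in exon 8 cut 2. For OGT, the exon 2 guide cut 7 of 7 coding transcripts and the other 3 guides cut 6 each, missing a short transcript of 156 codons.

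Other genome sites with few mismatches were rare and not coding. No guide had a second site with 1 mismatch next to NGG. Sites with 2 mismatches numbered 1 for the OGT exon 2 guide, 2 for the MGEA5 exon 4 guide and 2 for the MGEA5 exon 9 guide, and 0 for the other 5 guides. With 3 mismatches, OGT guides had 1 to 15 sites and MGEA5 guides 3 to 32, the most being for exon 9. None of these sites lay in coding sequence. GC content was 40 to 55% for the OGT guides and 35 to 45% for the MGEA5 guides.

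The cell libraries held between 26155295 and 31047546 reads each, and the guide pool 35774845. The medians were 302 to 321 reads per guide in input, 263 to 313 in sorted cells and 396 in the pool. Which deposited value belongs to which replicate is not given, so libraries 1, 2 and 3 are named only by their order within a cell of the guide table. The pilot, at 100-fold coverage where the other replicates had 300-fold, could not be picked out. Sorted libraries were far noisier than input libraries. The median coefficient of variation over 3 libraries was 17.3% of a guide's mean in input and 63.9% in sorted cells, and between 7.26 and 10.8% of guides had no read in a given sorted library, against 0.173 to 0.227% in input.

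Guides against OGT rose to the very top of the sorted libraries. The values that follow are normalised counts, which are reads times 1 factor per library, and the median guide stood at 264 to 265 in the input libraries and 282 to 301 in the sorted libraries. The OGT exon 12 guide had 240, 384 and 433 in the 3 input libraries and 9444, 13413 and 17759 in the 3 sorted libraries. It ranked 42769, 22880 and 18582 among all guides in the input libraries by normalised count, and 1 in each of the 3 sorted libraries. An OGT guide of ordinary abundance was therefore the most abundant guide of the whole library in each set of cells with high GFP.

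The other OGT guides were close behind. The OGT exon 10 guide had 165, 172 and 139 in input and 7149, 7533 and 11877 in sorted cells, where it ranked 2, 3 and 2. The OGT exon 7 guide had 110, 137 and 138 in input and 3083, 7356 and 8698 in sorted cells, ranking 9, 4 and 3. The OGT exon 2 guide had 257, 212 and 203 in input and 3337, 5897 and 5494 in sorted cells, ranking 7, 6 and 8. Input and sorted values did not overlap for any of the 4 guides, and each sorted value was more than 10 times the highest input value of the same guide. Among all 77388 guides tested, 9.04% had all 3 sorted values above all 3 input values. The guides to other genes that stood above the lowest OGT guide numbered 5, 2 and 4 in sorted libraries 1, 2 and 3, which were 9 different guides, of which 2 appeared in more than 1 library.

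All 4 OGT guides passed the test over all guides. The test was limma on log2 of the normalised count plus 1, with Benjamini-Hochberg adjustment over 77388 guides and a threshold of 0.05, and it called 0.0917% of all guides higher in sorted cells. On that scale the exon 10 guide had a log2 fold change of 5.76 ± 0.31 (SE, 3 libraries a group, adjusted p = 0.00649), which is 54.2-fold. The guides in exon 7 and exon 12 had 5.50 ± 0.41 and 5.26 ± 0.43, with adjusted p-values of 0.0235 and 0.0261. The exon 2 guide had the smallest of the 4, 4.41 ± 0.32 or 21.3-fold, with an adjusted p of 0.0235. None of 1000 non-targeting guides, which match no human gene, was called higher, and the highest of them reached 1.15. By limma's one-sided order the OGT guides held places 1, 2, 3 and 5.

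The guide calls were sensitive to the test and to a library, whereas the size of the change was not. Without sorted library 2 each of the 4 guides had an adjusted p of 0.0596, and the exon 12 guide also missed the threshold without input library 1 (0.158) or 2 (0.0519). With edgeR on whole reads their log2 fold changes were 4.29 to 5.65 and their adjusted p-values 0.222 to 0.299, in a fit that called 0 guides in either direction, with 2237 higher and 1718 lower at an unadjusted p below 0.05. DESeq2 called all 4, and called 1.51% of guides higher.

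As a gene, OGT stood first. The mean over its guides had a log2 fold change of 5.23 ± 0.22 (95% interval 4.73 to 5.73, limma adjusted p = 0.000226 over 19112 genes), where 0.0157% of genes were called higher. In sorted libraries 1, 2 and 3 the gene mean lay 4.69, 5.35 and 5.65 above the input mean in log2, so the change was seen in 3 of 3. By robust rank aggregation, the ranking used by MAGeCK, OGT had an adjusted p of 1.33e-12, with 0.314% of genes enriched. That p takes guide ranks as independent and says nothing of the spread between libraries. OGT remained called at gene level by limma, edgeR and DESeq2 and whichever library was left out, with log2 fold changes of 5.01 to 5.50. The highest adjusted p was 0.0493, in limma without sorted library 2.

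In reads, the 4 OGT guides together made up 0.00318, 0.00371 and 0.00374% of all input reads in libraries 1, 2 and 3. In sorted cells their share was 0.0836, 0.114 and 0.157%. The 95% Wilson intervals were 0.0826 to 0.0847% for sorted library 1 and 0.155 to 0.158% for sorted library 3. They cover the counting error of reads only. The reads carried no molecular identifiers, so error from the number of cells sampled is left out and was not measured. The OGT share differed between sorted libraries by more than the counting error of reads. Library 1 gave the lowest difference from input for each of the 4 guides, with log2 differences of 3.90 to 5.49, and library 3 gave the highest for the guides in exons 7, 10 and 12, at 5.69 to 6.22.

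The exon 2 guide had a smaller change than each of the other OGT guides, at the smallest p that the exact permutation test can give with 3 libraries a group, which is above the threshold. Relative to the exon 10 guide, its log2 difference was 0.63, 0.30 and 0.55 in the input libraries and -1.10, -0.35 and -1.11 in the sorted libraries, a change of -1.35 with no overlap between groups. The corresponding change was -1.09 against the exon 7 guide and -0.84 against the exon 12 guide. Each of the 3 had p = 0.1 in a two-sided exact permutation test over 3 input and 3 sorted libraries, the smallest that 3 against 3 libraries can give, and an adjusted p of 0.2 over the 6 pairs of OGT guides. Among the guides in exons 7, 10 and 12 the differences in change were no larger than 0.50 in size, with exact p-values of 0.3 to 0.6.

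Guides against OGA were uneven, with 1 lost from the sorted libraries and 3 that did not pass the test. The MGEA5 exon 9 guide had 93.8, 83.2 and 182 normalised counts in the input libraries and 0, 0 and 0 in the sorted libraries, from 114, 95 and 210 reads in input. Taking 3 reads per sorted library as the limit that a count of 0 allows, its mean sorted count was at least 40.6-fold lower. That limit covers counting error only and leaves out the spread between sorted libraries. It was the 1 of the 4 MGEA5 guides with all 3 sorted values below all 3 input values, as were 7.47% of all guides. The MGEA5 exon 8 guide had 67.4, 137 and 116 in input and 31.7, 0 and 73.8 in sorted cells, and its value in sorted library 3 lay within the input range. The MGEA5 exon 4 guide had 155, 203 and 262 in input and 101, 1.14 and 291 in sorted cells, with the value in sorted library 3 above all of its input values. The MGEA5 exon 3 guide had 252, 258 and 178 in input and 194, 448 and 150 in sorted cells, which overlapped.

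Of the 4 MGEA5 guides, limma called 1 lower, the one in exon 9 (adjusted p = 0.0376), against 0.591% of all guides. That call has to be read with its zeros, since 453 of the 457 guides called lower were at 0 in all 3 sorted libraries, as were 0.932% of all guides tested and 4 of the 1000 non-targeting guides. Of the 721 guides at 0 in all 3, 62.8% were called. Among the 9152 guides with a mean input of 100 to 150 normalised counts, a range that holds the exon 9 guide (120), 0.929% were at 0 in all 3. The call was lost with a pseudocount of 10 (adjusted p = 0.0625), without sorted library 2 (0.0596) and with edgeR (0.539), and held with DESeq2 (1.18e-05), which called 1.62% of guides lower.

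The other 3 MGEA5 guides did not pass. Their log2 fold changes were -2.94 ± 2.04 for exon 8, -2.35 ± 1.92 for exon 4 and 0.06 ± 0.58 for exon 3, with adjusted p-values of 0.749, 0.754 and 0.974. Non-targeting guides reached down to -5.70, with a 2.5th percentile of -2.69, and 1 of the 1000 was called lower. The exon 3 guide, whose cut is the nearest to the start of the protein, had a 95% interval of -1.28 to 1.40. Of the 4 MGEA5 guides, 2 were at 0 in 1 or more sorted libraries, as were 20.2% of all guides. In all, 4 of their 12 sorted values were 0, of which 2 came from sorted library 2, where the exon 4 guide also had only 1 read. The OGT guides had 5159 to 11734 reads in the same library. Sorted library 2 also had the largest share of guides at 0 (10.8%). Without it, the log2 fold change was -1.07 for exon 8, -0.23 for exon 4 and -0.40 for exon 3, and -2.13 for the gene, none of which passed.

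As a gene, MGEA5 did not pass over all genes. Its mean log2 fold change was -3.01 ± 0.84 (95% interval -4.95 to -1.08, limma adjusted p = 0.205, unadjusted 0.00723), with differences of -2.43, -4.78 and -1.84 in sorted libraries 1, 2 and 3. The median of all genes was -0.56, so relative to it the gene stood at -2.45, where 0 genes passed as lower and 2656 did at an unadjusted p below 0.05. Its rank aggregation for depletion had an adjusted p of 0.906, where 0.00523% of genes passed. The size rested on the guide at 0 and on sorted library 2. The mean over the other 3 guides was -1.74, a value added after the data were seen. In sorted library 2 the exon 8 guide had 0 reads and the exon 4 guide 1. Their log2 differences from input were -6.69 and -6.57, against 0.98 for exon 3. Without that library, the log2 fold changes were -1.07, -0.23 and -0.40 for exons 8, 4 and 3. The median of all genes was then -0.42. In summed reads the log2 fold change of the gene was -0.80 (edgeR adjusted p = 0.620, DESeq2 0.162), while the median of all genes in that edgeR fit was 0.03. The sums over the 4 guides were 568, 682 and 738 normalised counts in input and 327, 449 and 515 in sorted cells. All 3 sorted sums lay below all 3 input sums, as they did for 3.55% of all genes.

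Set side by side, the guides against these enzymes stood apart in each sorted library, for which the rise of OGT was enough. The gene mean of OGT minus that of MGEA5, in log2 normalised counts, was 0.54, 0.41 and 0.19 in the input libraries, and 7.50, 10.5 and 7.88 in the sorted libraries. The difference changed by 8.25 between input and sorted cells, and by 5.91 in summed reads. All sorted values lay above all input values, and the exact two-sided permutation p was 0.1, again the smallest possible with 3 libraries a group. The gene mean of OGT rose by 4.69, 5.35 and 5.65 in sorted libraries 1, 2 and 3. The groups would thus also lie apart had MGEA5 stayed level, so this p says nothing of MGEA5. OGT alone changed by 5.23, which was 5.79 above the median change of all genes. The MGEA5 part, -3.01, did not pass as a gene. It was -1.74 without the guide at 0 and -2.13 without sorted library 2. The gene mean with both left out was not computed. Without that library the guides in exons 8, 4 and 3 had -1.07, -0.23 and -0.40, beside -0.42 for the median gene.

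Before sorting, 1 of the 4 OGT guides was well below its level in the guide pool and 3 were not. Input libraries were set against the guide pool by the log2 ratio after each library was scaled to its median guide. With 1 pool library there is no test. The series record describes it as unselected cells, and the methods as the DNA from which virus was made. The OGT exon 10 guide stood at -1.87, -1.82 and -2.13 in input libraries 1, 2 and 3, or 0.260-fold of its level in the pool. It had 912 reads in the pool, the most of the 8 guides, and only 201, 196 and 160 in input. It was the 1 guide of 8 that was lower by 2-fold or more in all 3 input libraries, as were 3.27% of all guides, and 4.95% of the 9496 guides with over 800 pool reads. None of the 8 was higher by 2-fold or more in all 3, as were 0.701% of all guides.

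The remaining OGT guides held their level. Their mean log2 ratios to the pool were 0.10 ± 0.18 for exon 2, 0.07 ± 0.18 for exon 7 and 0.32 ± 0.45 for exon 12 (SD, 3 input libraries). By the same measure MGEA5 guides stood at -0.02 ± 0.30 for exon 3, 0.41 ± 0.37 for exon 4, -0.87 ± 0.53 for exon 8 and -0.77 ± 0.60 for exon 9. The SD over all guides was 0.63, and that over non-targeting guides 0.51. The MGEA5 guides in exons 8 and 9, lower in input than in the pool, were also those with the lowest sorted values.

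As gene means before sorting, the ratio to the pool was -0.36 ± 0.10 for OGT and -0.31 ± 0.25 for MGEA5 (SD, 3 input libraries). Without input library 1 these were -0.31 and -0.18. The means over 3 libraries placed 15.1 and 18.6% of genes below them. Neither was lower by 2-fold or more in all 3 input libraries, as were 0.853% of genes. Non-targeting guides stood at 0.33 on this scale, so relative to them the means were -0.69 and -0.64. GFPT1, the enzyme that commits glucose to hexosamine synthesis, was at -0.98 ± 0.10, lower than both. It was the lowest of 11 genes of hexosamine synthesis and salvage, whose median was 0.23 and whose highest value was 0.70.

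Enzymes that make or recycle the sugar donor did not pass in the main tests, where GFPT1 and UAP1 came nearest. Both passed in some of the alternatives, given below. Of 11 genes of hexosamine synthesis and salvage, 0 passed as enriched or depleted by rank aggregation. At an unadjusted p below 0.05 there were 3 and 1. For scale, in that test an enrichment p of 0.0485 (PGM3) ranked 1020 among 19112 genes. A depletion p of 0.0508 (MGEA5) ranked 1071. By limma 0 of the 11 passed, with 2 at an unadjusted p below 0.05, as were 15.9% of all genes. DESeq2 called GFPT1 and UAP1 of the 11, and among all genes it called 486 higher and 183 lower. Their median log2 fold change was -0.35, beside -0.56 for all genes, and the range was -1.46 to 2.21. Of the 11, UAP1 makes UDP-GlcNAc, PGM3 is the mutase that acts just before it, and AMDHD2 is a deacetylase of the breakdown route. The 4 with the smallest enrichment p were GFPT1 (2.21 ± 0.65), UAP1 (0.99 ± 0.29), PGM3 (-1.08 ± 0.68) and AMDHD2 (0.47 ± 0.26). Their adjusted p-values were 0.0925, 0.115, 0.906 and 1 by rank aggregation. PGM3 was counted in both directions, with unadjusted rank aggregation p-values of 0.0485 for enrichment and 0.0353 for depletion. Its log2 fold change in summed reads was 0.81 by edgeR. In sorted libraries 1, 2 and 3, the log2 difference from input was 3.69, 1.25 and 1.70 for GFPT1 and 0.90, 0.40 and 1.66 for UAP1. For both it was positive in 3 of 3 libraries, and the highest value, GFPT1 in library 1, was below the lowest of OGT (4.69).

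No gene came close to OGT in the size of its change, which the distance used here counts. By the distance over 4 log2 values (the difference of each sorted library from the input mean, and the ratio of input to pool), the nearest of 19104 genes were CREBBP (distance 4.23), ALDOA (4.74), SNRNP200 (4.95), PRPF19 (5.15) and DDX23 (5.18), and 0 genes lay within a distance of 1. CREBBP had 3.36, 2.23 and 3.18 in the sorted libraries, against 4.69, 5.35 and 5.65 for OGT. The distance from OGT thus largely restates that its change was the largest. MGEA5 had 30 genes within 1, the nearest being CDKL1 (0.420), MAN1A1 (0.464), BRWD3 (0.607), PTMS (0.633) and SLCO5A1 (0.640), which like MGEA5 were lowest in sorted library 2. The value in sorted library 2 was part of the distance, so that shared low follows from the choice of genes. Likeness of this kind is a description of guide abundance in 7 libraries.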

How the data were processed

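Per the labels, the authors used FastQC 0.11.9 and cutadapt 3.3 before reads were matched to the Brunello guides in the MAGeCK pipeline. The deposited guide table holds, for each guide, 3 normalised values a group, which are reads times 1 factor per library. For the guide pool the authors deposited 1 raw count for each guide. The deposited columns of scores, p-values and fold changes hold the authors' own comparison and were not used.

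Whole reads were recovered as multiples of 1 step per library (99.997 to 100% of values whole within 0.1 read). Of 77441 guides, 53 at 0 in all 6 cell libraries were left out. Guides and gene means were tested with limma 3.58.1 (R 4.3.3, lmFit, eBayes with trend), and genes were ranked by robust rank aggregation (alpha 0.25) with its null computed exactly. Alternatives used edgeR 4.0.16, DESeq2 1.42.0, pseudocounts of 0.5 and 10, a mean input of at least 50, other scalings, alpha 0.1 and leaving out each library. The limma fits and the aggregation were tested on simulated data, in which no guides were made to drop to 0 in the sorted libraries. Intervals have a confidence level of 95%.

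The libraries are labelled as biological replicates, which the study's checklist defines as cells passaged separately in time. The p-values of the fits and of the permutation tests measure the spread between them. Those of rank aggregation are over guide ranks and do not. Guides were matched to GRCh38 as 20 bases followed by NGG, with GENCODE 44. Members and gene lists were chosen with earlier results of these data known. Named genes were the 4 with the smallest enrichment p of the lists, any that passed, and the 5 nearest to each member. A gene of the lists is not reported here.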

Additional observations from a re-analysis of the deposited data

How the results depend on the processing

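No paired analysis was possible because nothing in the deposited values tells which replicate each came from. OGT kept its direction and its call as a gene in each of 15 alternatives by the gene fit and 14 by rank aggregation, and MGEA5 stayed negative without passing. With edgeR, 0 OGT guides were called higher and 0 MGEA5 guides lower, and with a pseudocount of 10, 0 MGEA5 guides. Leaving out 1 library gave 0 to 4 OGT guides called higher and 0 to 1 MGEA5 guides called lower. The number of hexosamine genes enriched was 1 with a mean input of at least 50, with equal totals and with edgeR p-values (GFPT1, adjusted p = 0.0312, 0.0365 and 0.00909), and 0 to 1 when 1 library was left out. That gene was GFPT1 without input library 1 or sorted library 3 (0.0339 and 0.0137) and UAP1 without sorted library 2 (0.0442). GFPT1 had 0.829 without sorted library 1, where its log2 fold change was 1.47 in place of 2.21, and UAP1 had 0.687 without sorted library 3, at 0.65 in place of 0.99. With DESeq2, 2 hexosamine genes passed. OGT minus MGEA5 was 5.91 with edgeR and 5.91 with DESeq2. Scaled to non-targeting guides, the ratio of input to pool was -0.69 for OGT and -0.64 for MGEA5. Guides called higher or lower numbered 71 and 457 by limma, 0 and 0 by edgeR and 1127 and 1211 by DESeq2, and genes 3 and 0, 52 and 0, and 486 and 183. The cause of these differences was not tested. Depth did not allow a level under 3 reads to be told from 0, which limits the MGEA5 exon 9 guide in sorted cells.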

Other observations

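EOGT, HEXA and HEXDC, enzymes that handle the same sugar in other compartments or reactions, did not pass in either direction, with 0 of the 3 called by rank aggregation or limma (0 also at an unadjusted p below 0.05). EOGT, which adds GlcNAc to extracellular domains inside the endoplasmic reticulum, had a log2 fold change of -1.97 ± 1.00 (SE, 3 libraries a group), with differences of -2.95, -3.36 and 0.41 in sorted libraries 1, 2 and 3. In summed reads it was 0.06 by edgeR. HEXA, a subunit of lysosomal hexosaminidase, stood at -0.73 ± 0.55, and HEXDC, a further hexosaminidase, at -0.15 ± 0.10. These genes were among those chosen with earlier results known, and are given as values.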
